A study of Mus musculus with 12 samples.

Results

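The CXC chemokines described here are 8 genes of the 48526 in the count table: Cxcl1, Cxcl2, Cxcl3, Cxcl5, Cxcl9, Cxcl10, Cxcl11 and Cxcl16. They were chosen by name with the genotype and LPS fold changes of these data already known, and which of those values guided the list is not recorded. Adjusted p-values for these genes therefore describe the size of a difference against the spread between libraries and give no independent support. All 8 genes passed the filter on low counts and were among the 15523 genes tested. The RNA came from bone marrow-derived macrophages (BMDMs), grown from mouse marrow for 6 days in medium with Csf1, here supplied by 20% L929-conditioned medium. WT BMDMs came from mice without the deletion, which the labels call littermates. The methods name purchased C57BL/6 mice and do not say whether these were the WT mice here. KO BMDMs came from homozygous HSS9 KO mice, which lack an enhancer segment upstream of Tnf. Both genotypes were male and 7 to 10 weeks old by the methods of the study, and the deletion is carried by every cell of the animal. Cells received PBS (UT) or lipopolysaccharide (LPS), a bacterial cell wall component, for 6 hr, which made 4 groups of 3 libraries, called WT UT and KO UT without LPS and WT LPS and KO LPS with it. Whether the libraries of a group came from separate mice is not stated, so the tests measure the spread between libraries only.

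CXC chemokines are small proteins, most of them secreted, that guide leukocytes through G protein-coupled receptors. The mouse genes Cxcl1, Cxcl2, Cxcl3 and Cxcl5 encode ligands of Cxcr2 that carry the ELR amino acid motif and attract neutrophils. Their transcription in macrophages is known to follow NF-kappaB, the factor family that LPS activates through Toll-like receptor signaling. Cxcl9, Cxcl10 and Cxcl11 lack the ELR motif, bind Cxcr3 on activated T cells and natural killer cells, and are classical interferon-induced genes. Cxcl16 is made as a transmembrane protein, binds Cxcr6, takes up oxidized lipoprotein, and is released from the membrane by the proteases Adam10 and Adam17.

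Genes of the list lay in clusters, with 7 of the 8 on chromosome 5 of GRCm38. Cxcl5 (ENSMUSG00000029371.7, 90759360 to 90761624), Cxcl3 (ENSMUSG00000029379.10, 90786103 to 90789600), Cxcl1 (ENSMUSG00000029380.11, 90891241 to 90893115) and Cxcl2 (ENSMUSG00000058427.10, 90903871 to 90905938) were on the plus strand. Cxcl9 (ENSMUSG00000029417.9, 92321347 to 92328079), Cxcl10 (ENSMUSG00000034855.13, 92346638 to 92348889) and Cxcl11 (ENSMUSG00000060183.6, 92359544 to 92365485) were neighbors on the minus strand. Cxcl16 (ENSMUSG00000018920.11) was alone on chromosome 11, 70453983 to 70459984, minus strand. All are annotated as protein coding except Cxcl11, a polymorphic pseudogene in the C57BL/6 reference, so its counts are those of transcripts.

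The promoters are shown because Cxcl1, Cxcl2 and Cxcl3 share one sequence element. Their genotype differences, given below, were not alike, and the part of the element in them was not tested. Promoter windows of RefSeq (GRCm38.p6) were matched for 5 genes by symbol, and none was matched for Cxcl5, Cxcl11 or Cxcl16. For the neutrophil-attracting genes, 100 bases that end just before the earlier of the RefSeq and GENCODE starts are printed 5′ to 3′ on the gene's strand, with matches to the kappaB consensus in capitals. The windows are chr5:90891141-90891240 for Cxcl1, chr5:90903771-90903870 for Cxcl2 and chr5:90786001-90786100 for Cxcl3, all on the plus strand.
Cxcl1: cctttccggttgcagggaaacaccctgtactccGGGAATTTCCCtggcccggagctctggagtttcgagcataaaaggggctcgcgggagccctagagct
Cxcl2: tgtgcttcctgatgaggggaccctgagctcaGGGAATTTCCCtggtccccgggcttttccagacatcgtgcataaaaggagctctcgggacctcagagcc
Cxcl3: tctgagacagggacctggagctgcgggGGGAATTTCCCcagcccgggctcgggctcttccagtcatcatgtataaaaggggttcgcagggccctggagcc

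For Cxcl9 and Cxcl10 the 250 bases before the start are printed, chr5:92328080-92328329 and chr5:92348890-92349139, both on the minus strand. Capitals mark matches to the kappaB consensus, to the interferon-stimulated response element (ISRE, which is TTTC, any 2 bases and TTTC) or to the gamma-activated site TTCNNNGAA (GAS), each on either strand.
Cxcl9: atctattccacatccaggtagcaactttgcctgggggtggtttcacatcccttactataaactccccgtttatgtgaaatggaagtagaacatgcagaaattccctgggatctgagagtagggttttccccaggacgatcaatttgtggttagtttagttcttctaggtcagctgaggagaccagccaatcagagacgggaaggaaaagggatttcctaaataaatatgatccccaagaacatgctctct
Cxcl10: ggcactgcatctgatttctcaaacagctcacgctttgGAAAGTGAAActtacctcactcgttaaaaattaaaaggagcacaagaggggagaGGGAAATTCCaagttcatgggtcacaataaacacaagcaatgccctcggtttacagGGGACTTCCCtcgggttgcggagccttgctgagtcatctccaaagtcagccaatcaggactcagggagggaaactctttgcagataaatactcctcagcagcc

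The same kappaB match, GGGAATTTCC and its overlapping counterpart on the other strand, stood in all 3 windows of the neutrophil-attracting genes. It began 71 bases before the RefSeq start in Cxcl1, 97 in Cxcl2 and 73 in Cxcl3. Cxcl10 held 2 other kappaB matches, beginning 159 and 103 bases before its start, and 1 ISRE match, on the strand opposite to the gene, 213 bases before it. None of the 3 motifs was found in the window of Cxcl9, which says only that these exact letters are absent there. Over all 32851 RefSeq promoter windows (250 bases before to 50 after the start), 4.51% held the kappaB consensus, 3.44% the ISRE and 8.30% the GAS. Over the 250 bases before the start, which include the shared match, Cxcl2 and Cxcl3 were 58.7% identical in a global alignment. Cxcl1 was 52.0% identical to Cxcl2 and 52.7% to Cxcl3, little above the 44.9% to 51.5% of the pairs that involve Cxcl9 or Cxcl10.

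Library totals ranged from 26154533 to 36423921 counts, and levels are given as counts and as CPM, the count divided by the TMM-scaled library size and set to a common total. A gene counted as called when the edgeR quasi-likelihood test gave an adjusted p below 0.05 (Benjamini-Hochberg over all genes tested) with an absolute log2 fold change (log2FC) over 1, and as passed on the adjusted p alone. Tnf, the readout of the deletion, was lower in KO after LPS (log2FC -1.04, SE 0.0604) and without LPS (log2FC -0.66, SE 0.0732). Macrophage markers summed to between 5366 and 7852 CPM in every library, higher in KO than in WT in each treatment without overlap, and T cell markers to at most 0.145 CPM. Of the 6 macrophage markers, 3 passed as higher and 1 as lower in KO without LPS, where 23.8% of all genes passed. Csf1r had 2448 CPM on average in WT UT and 2242 CPM in KO UT. After LPS 4 of the 6 passed as higher and 0 as lower, where 14.3% of all genes passed. Other facts of the libraries moved with the groups. The 7 neutrophil markers, of which Ly6g was at 0 counts in every library, summed to 19.9 to 21.5 CPM in WT UT and 42.0 to 47.2 CPM in KO UT, and to 50.4 to 79.3 CPM in WT LPS and 67.1 to 76.2 CPM in KO LPS. The rise of this sum with LPS was mainly that of S100a8 (7.32 to 52.7 CPM in WT), while S100a9 fell (10.99 to 6.08 CPM in WT and 25.5 to 10.2 CPM in KO). Of the 5 tested, 2 passed as higher and 2 as lower with LPS in WT, where 38% of all genes passed as higher and 35.3% as lower. In KO the counts were 2 and 3, against 35.1% and 37.7% of all genes. The 8 stromal markers summed to 8.43 to 8.51 CPM in WT UT, 12.3 to 12.8 in KO UT, 25.3 to 26.8 in WT LPS and 37.8 to 38.4 in KO LPS. Single stromal markers did not move together: with LPS in WT the rise of the sum was that of Pdgfrb (0.966 to 19.8 CPM), while Col1a1 and Col1a2 fell. Of the 7 tested, 1 passed as higher and 2 as lower with LPS in WT, whereas 4 passed as higher and 0 as lower in KO, where Col3a1 went from 0.702 to 1.87 CPM. The sum of the 3 endothelial markers, nearly all of it Kdr, was lower in KO, while Pecam1 alone was higher in KO without LPS (log2FC 0.73, edgeR adjusted p 0.0355). They summed to 35.5 to 38.6 CPM in WT UT and 24.1 to 27.3 in KO UT, and to 100.4 to 124.9 in WT LPS and 85.5 to 93.9 in KO LPS. Small structured RNA and rRNA genes took 3.00% to 3.25% of counts in WT UT, 6.64% to 7.98% in KO UT, 4.04% to 6.89% in WT LPS and 3.23% to 3.43% in KO LPS. The part of these values in the results was not tested, except where a fit with the small RNA share is given. In bulk RNA, fewer cells of a type and less RNA per cell cannot be told apart.

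**Figure D1:**
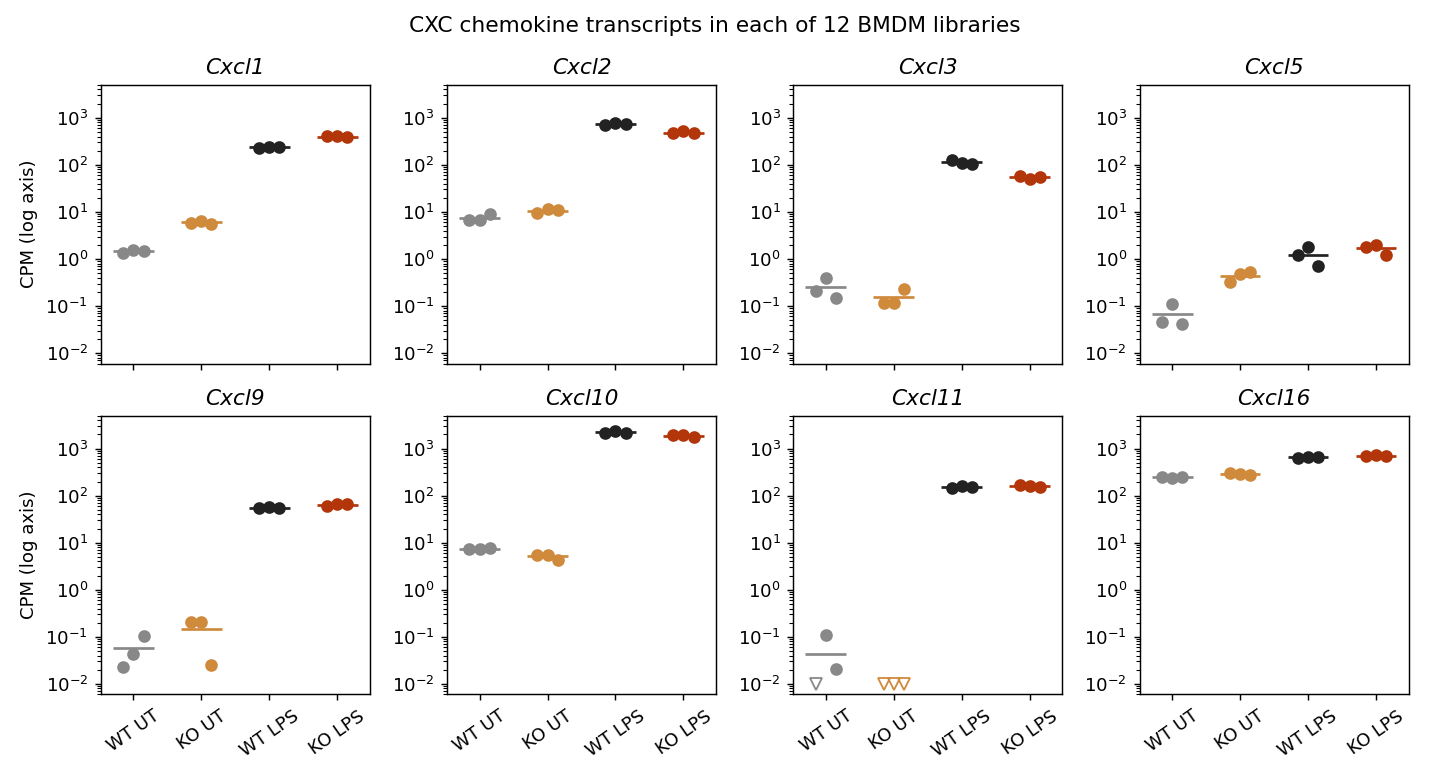
CPM of the 8 CXC chemokine transcripts (y, log axis) in the 3 libraries of each of 4 groups (x), with points for libraries and bars for group means; open triangles at 0.01 mark libraries with 0 counts. All LPS libraries of every gene sit above all UT libraries of the same genotype. KO and WT libraries separate in both treatments for Cxcl1, Cxcl2, Cxcl10 and Cxcl16.

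LPS raised all 8 genes in both genotypes. After 6 hr, 8 of 8 genes were called higher in WT, where 37.8% of all genes were called in either direction and 19.1% were called higher. The same 8 were called higher in KO, where 37% of all genes were called and 17.7% were called higher. The size of the response ranged widely among the genes, from 1.42 on the log2 scale for Cxcl16 to 11.63 for Cxcl11 in WT. The value of Cxcl11 rests on 0, 5 and 1 counts in WT UT and ran from 11.11 to 13.30 over the alternative fits, so its size is poorly set. Cxcl9 came next at 9.77, on 1 to 5 counts per WT UT library, and ran from 9.43 to 10.50. Cxcl16 responded least and was also the only gene of the list with a high level before LPS.

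Per length, measured as mean CPM per kb of exon, Cxcl16 led in unstimulated cells at 80.9 in WT and 95.8 in KO. Cxcl2 and Cxcl10 followed in WT UT at 3.64 and 3.29 CPM per kb, with overlapping libraries, then Cxcl1 at 0.777 CPM per kb. Cxcl3, Cxcl5, Cxcl9 and Cxcl11 were each below 0.1 CPM per kb in WT UT, and each overlapped its neighbor in the order. In KO UT the order of the middle genes differed, with Cxcl1 (3.19 CPM per kb) above Cxcl10 (2.27) and no overlap between their libraries. After LPS, Cxcl10 led in both genotypes, at 984 CPM per kb in WT and 842 in KO. In WT LPS it was followed by Cxcl2 (358 CPM per kb), Cxcl16 (217), Cxcl1 (128), Cxcl11 (40.2), Cxcl3 (32.3), Cxcl9 (18.3) and Cxcl5 (0.668), without overlap between neighbors. In KO LPS the levels of Cxcl16 (237 CPM per kb) and Cxcl2 (236) overlapped, Cxcl1 came close below them at 213, and Cxcl9 (21.3) stood above Cxcl3 (15.7). Exon length here is the union of all annotated exons, so transcripts with retained introns lengthen some genes.

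Among the neutrophil-attracting genes, Cxcl1 was higher in KO with and without LPS. Counts of Cxcl1, also known as KC, were 58, 70 and 69 across WT UT and 205, 217 and 222 across KO UT. With LPS they were 6140, 5449 and 5210 in WT against 10709, 10718 and 10466 in KO. The KO libraries lay above the WT libraries in each treatment, without overlap. Without LPS the mean was 1.46 ± 0.0943 CPM in WT against 5.97 ± 0.382 CPM in KO (SD, n = 3 each), a log2 fold change of 2.03 (SE 0.0974, edgeR adjusted p 4.53e-12). After LPS the mean was 239.7 ± 9.41 CPM in WT against 398.6 ± 14.1 CPM in KO (SD, n = 3 each), a log2 fold change of 0.73 (SE 0.0555, edgeR adjusted p 1.49e-08), which is below the fold change minimum. LPS raised Cxcl1 164-fold in WT and 66.8-fold in KO. The log2 response was 1.30 smaller in KO (interaction log2FC -1.30, SE 0.114, edgeR adjusted p 2.20e-07), from a higher starting level and to a higher final level. With the small RNA share as a covariate the interaction was -0.99 (edgeR adjusted p 0.00739), under the fold change minimum. Stromal markers, given above, also summed higher in KO in both treatments, but not every marker did so. Without LPS 3 of the 7 tested passed as higher in KO, where 23.8% of all genes passed in either direction, with Acta2 going from 3.32 to 6.48 CPM, and Col1a1, Col1a2 and Col3a1 did not pass (log2FC 0.26, -0.20 and -0.37). After LPS 5 of the 7 passed as higher, where 14.3% of all genes passed, while Pdgfrb, the most counted of them there, had a log2FC of -0.0086. Some neutrophil markers also differed between genotypes, while with LPS S100a9 fell and Cxcl1 rose. Without LPS 4 of the 5 tested were called higher in KO (S100a8, S100a9, Camp and Mpo), where 1.02% of all genes were called higher. In the interaction 3 of the 5 were called lower (S100a8, Camp and Mpo), where 1.64% of all genes were, and after LPS 1 passed between genotypes (S100a9, higher in KO). The calls of Mpo rested on 1 to 4 counts per library in WT UT, 11 to 20 in KO UT, 1 to 3 in WT LPS and 1 to 2 in KO LPS. The part of either list in the Cxcl1 differences was not tested.

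Cxcl2 differed in opposite directions with and without LPS. For Cxcl2, also known as MIP-2, WT UT held 286, 303 and 432 counts and KO UT held 327, 393 and 430. After LPS the counts were 18663, 17602 and 15536 in WT against 12528, 13755 and 12702 in KO. On the CPM scale the KO UT libraries lay above the WT UT libraries by a narrow margin, 9.46 against 9.19 CPM for the closest pair, and the KO LPS libraries lay clearly below the WT LPS libraries. Without LPS the mean was 7.52 ± 1.44 CPM in WT against 10.6 ± 1.07 CPM in KO (SD, n = 3 each; log2FC 0.50, SE 0.106, edgeR adjusted p 0.00138). After LPS it was 739 ± 47.7 CPM in WT against 487 ± 26.5 CPM in KO (SD, n = 3 each; log2FC -0.60, SE 0.0828, edgeR adjusted p 4.91e-05). The interaction was -1.10 (SE 0.134, edgeR adjusted p 1.65e-05). With the small RNA share as a covariate the difference without LPS was 0.42 (edgeR adjusted p 0.231) and the interaction -0.98 (edgeR adjusted p 0.0513).

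Cxcl3 was the gene of the list called lower in KO after LPS. It encodes a further Cxcr2 ligand. Its counts were 3369, 2462 and 2172 across WT LPS and 1502, 1367 and 1540 across KO LPS, without overlap. The mean was 112.8 ± 11.8 CPM in WT LPS against 55.1 ± 3.31 CPM in KO LPS (SD, n = 3 each), a log2 fold change of -1.04 (SE 0.0827, edgeR adjusted p 3.50e-08). The value sat at the fold change minimum: without WT LPS replicate 1 it was -0.95 and without KO LPS replicate 2 it was -0.98, and in both fits the gene was no longer called. In unstimulated cells the counts were 9, 18 and 7 for WT against 4, 4 and 9 for KO, with overlap (log2FC -0.67, SE 0.458, edgeR adjusted p 0.332). LPS raised it 442-fold in WT and 342-fold in KO, and the interaction did not pass (-0.37, SE 0.508, edgeR adjusted p 0.687). Cxcl2 and Cxcl3 transcripts shared 126 exact words of 50 bases, out of 2159 words in Cxcl2 and 3587 in Cxcl3, so reads in that stretch could have been assigned to either gene or dropped. No 50-base word was shared between Cxcl1 and either of them.

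Cxcl5, also known as LIX, was measured near the limit of counting. Its counts were 2, 5 and 2 across WT UT and 11, 16 and 21 across KO UT. LPS brought them to 33, 40 and 15 in WT and to 48, 52 and 34 in KO. The KO UT libraries lay above the WT UT libraries without overlap (log2FC 2.66, SE 0.554, edgeR adjusted p 0.00108), whereas the LPS libraries overlapped (log2FC 0.43, SE 0.367, edgeR adjusted p 0.483). On the log2 scale the response to LPS was 4.15 for WT and 1.92 for KO (interaction -2.23, SE 0.673, edgeR adjusted p 0.0261). The interaction lost its call without any 1 of 6 libraries in turn, with values of -2.19 to -1.89 and edgeR adjusted p between 0.0508 and 0.0835 in those 6 fits. With the small RNA share as a covariate, the difference without LPS was larger, 3.71, but did not pass (edgeR adjusted p 0.0739), and the LPS response in KO was 0.97 (edgeR adjusted p 0.502). A filter that asked for a mean CPM of 1 or more removed the gene. The 3 genes whose pattern was most like that of Cxcl5 were close together, Kalrn (0.530), Camp (0.534) and Itga9 (0.536), by the measure described below. Camp is a neutrophil granule gene of the marker list, with 8 to 12 counts in WT UT and 27 to 35 in KO UT. S100a9, of the same list, fell with LPS in both genotypes, whereas Cxcl5 rose. The part of neutrophils in the Cxcl5 values was not tested.

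**Figure D2:**
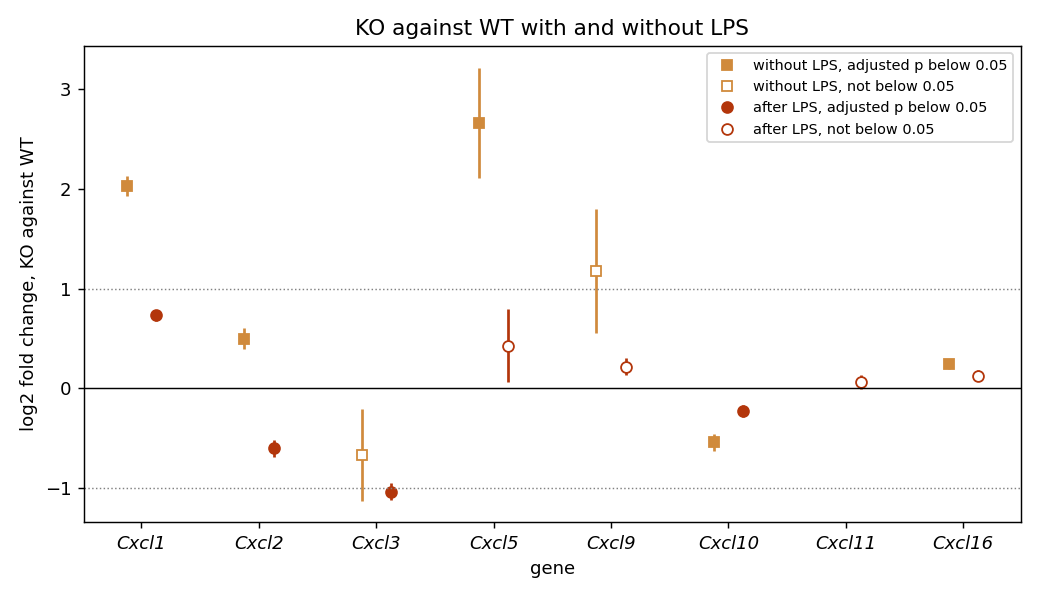
Log2 fold change of KO against WT (y) for each CXC chemokine gene (x), without LPS (squares) and after LPS (circles), with bars for the SE of the edgeR fit; filled symbols have an adjusted p below 0.05 and dotted lines mark the fold change minimum. Cxcl1 sits above 0 in both treatments, Cxcl2 changes side (0.50 without LPS, -0.60 after LPS), and Cxcl11 without LPS is left out because KO UT was at 0 counts.

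Of the interferon-induced genes, Cxcl10 alone passed the test between genotypes. Counts of Cxcl10, also known as IP-10, were 312, 332 and 358 across WT UT and 187, 191 and 172 across KO UT. After LPS they were 59168, 51962 and 44814 in WT against 50994, 52124 and 48599 in KO. On the CPM scale the KO libraries lay below the WT libraries in each treatment. Without LPS the mean was 7.41 ± 0.175 CPM in WT against 5.12 ± 0.677 CPM in KO (SD, n = 3 each; log2FC -0.54, SE 0.0857, edgeR adjusted p 7.09e-05). After LPS the difference was smaller, at 2217 ± 111 CPM in WT against 1897 ± 102 CPM in KO (SD, n = 3 each; log2FC -0.23, SE 0.0609, edgeR adjusted p 0.0171). That difference did not pass without WT LPS replicate 2 or without KO LPS replicate 3, with log2FC -0.18 in each (edgeR adjusted p 0.0987 and 0.0983). With the small RNA share as a covariate it stayed at -0.23 but did not pass (edgeR adjusted p 0.0545). Over all alternatives its adjusted p ranged from 0.00271 to 0.0987. The response to LPS was 299-fold in WT and 372-fold in KO (interaction 0.31, SE 0.105, edgeR adjusted p 0.0451), and the interaction lost its pass in 10 of 22 alternative fits. Art3 overlaps Cxcl10 on the other strand over 133 exon bases, but it had 0 to 2 counts in UT and 20 to 68 after LPS.

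Cxcl9 and Cxcl11 were nearly silent before LPS and differed little between genotypes after it. Cxcl9, also known as MIG, had 1, 2 and 5 counts in WT UT, 7, 7 and 1 in KO UT, 1459, 1282 and 1135 in WT LPS and 1555, 1748 and 1834 in KO LPS. After LPS the KO libraries lay above the WT libraries, at 64.1 ± 3.98 against 55.1 ± 2.13 CPM (SD, n = 3 each), but the difference did not pass (log2FC 0.22, SE 0.0836, edgeR adjusted p 0.0874). It passed with DESeq2 (adjusted p 0.0323), with no filter on low counts and without KO UT replicate 3. Without LPS its libraries overlapped (log2FC 1.18, SE 0.624, edgeR adjusted p 0.193), and without KO UT replicate 3, which had 1 count, the value was 1.72 (edgeR adjusted p 0.028). Cxcl11, also known as I-TAC, had 3973, 3543 and 3199 counts in WT LPS and 4330, 4304 and 4125 in KO LPS, which overlapped in CPM (log2FC 0.064, SE 0.0713, edgeR adjusted p 0.609). In UT it had 0, 5 and 1 counts in WT and 0 in each KO library, against a floor of 3 counts per library, so no fold is given between genotypes. Its edgeR adjusted p without LPS was 0.0657, and DESeq2 gave an adjusted p of 0.0489. Measured against that floor, LPS left Cxcl11 in KO at least 1908-fold higher. The pseudogene Gm2673 shares 1582 exon bases with Cxcl11 on the other strand and had 0 to 2 counts.

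Cxcl16, the transmembrane chemokine, stood apart from the others by its high level in unstimulated macrophages. It had 10546, 10693 and 11804 counts in WT UT and 10367, 9745 and 11155 in KO UT, or 245 ± 7.78 and 289 ± 9.23 CPM (SD, n = 3 each). The KO UT libraries lay above the WT UT libraries on the CPM scale (log2FC 0.24, SE 0.0528, edgeR adjusted p 0.00159). With the small RNA share as a covariate the value was 0.053 (edgeR adjusted p 0.859). After LPS the counts were 16690, 15056 and 14096 in WT against 18447, 19832 and 18925 in KO (log2FC 0.13, SE 0.0525, edgeR adjusted p 0.110), and DESeq2 gave an adjusted p of 0.0302. With the small RNA share as a covariate the difference after LPS was 0.23 and passed (edgeR adjusted p 0.0247). LPS raised it 2.67-fold in WT and 2.47-fold in KO (interaction -0.11, SE 0.0744, edgeR adjusted p 0.330). Zmynd15 overlaps Cxcl16 on the other strand over 552 exon bases and had 443 to 1310 counts. The proteases that shed Cxcl16 were expressed in every library. Adam17 was higher in KO after LPS (log2FC 0.29, SE 0.0554, edgeR adjusted p 0.00145), as was Adam10 (log2FC 0.31, SE 0.0867, edgeR adjusted p 0.0217), and without LPS Adam10 was lower (log2FC -0.33, SE 0.0848, edgeR adjusted p 0.00674).

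**Figure D3:**
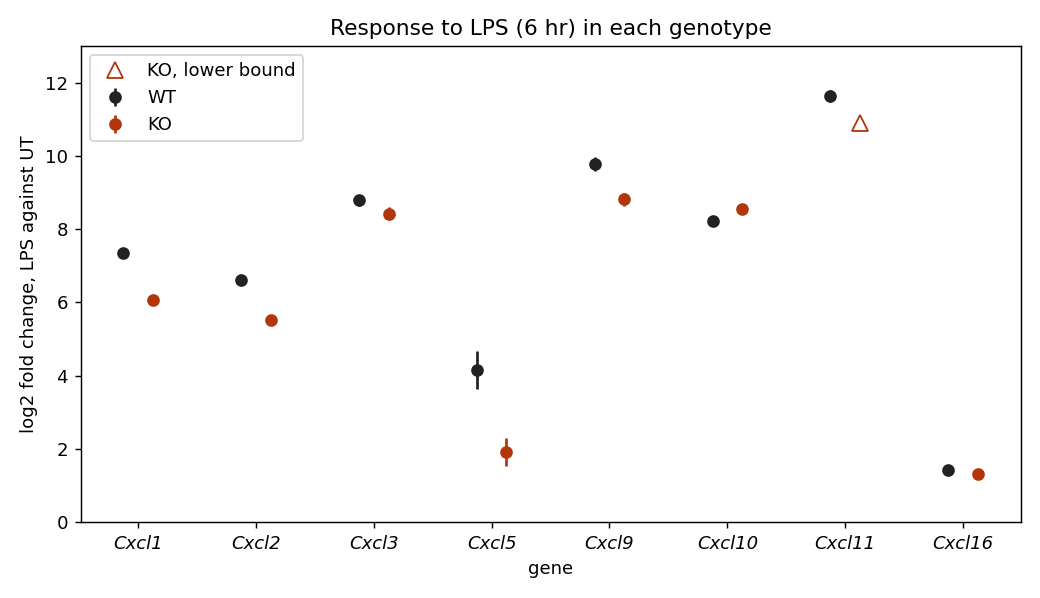
Log2 fold change of LPS against UT (y) for each CXC chemokine gene (x) in WT (black) and KO (red), with bars for the SE of the edgeR fit. The open triangle is the lower bound for Cxcl11 in KO, whose UT libraries had 0 counts, and the WT value of Cxcl11 rests on 0 to 5 counts per UT library; the response of Cxcl1 was 7.36 in WT and 6.06 in KO, and that of Cxcl16 the smallest in WT at 1.42.

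Counted together, after LPS 1 of 8 genes was called between genotypes, against 1.25% of all genes tested, and it was Cxcl3, which was lower (0.664% of all genes were called lower). On the adjusted p alone 4 of 8 passed (14.3% of all genes), with Cxcl1 higher and Cxcl2, Cxcl3 and Cxcl10 lower. Without LPS 2 of 8 were called, Cxcl1 and Cxcl5 (1.82% of all genes called, 1.02% called higher), and 5 of 8 passed (23.8% of all genes), with Cxcl1, Cxcl2, Cxcl5 and Cxcl16 higher and Cxcl10 lower. For the interaction 3 of 8 were called, Cxcl1, Cxcl2 and Cxcl5 (2.16% of all genes called, 1.64% called with a value below 0), and 4 passed with Cxcl10 (16.8% of all genes). KO and WT libraries did not overlap in CPM for 6 of 8 genes after LPS (29.1% of all genes) and for 5 of 8 without LPS (40.8% of all genes). LPS and UT libraries did not overlap for 8 of 8 genes in WT (74.8% of all genes) or in KO (76% of all genes). The list was drawn up with these contrasts known, so nothing is read from its counts beside those shares.

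The neutrophil-attracting and interferon-induced genes were compared as sums over each set, in CPM per kb. Without LPS the neutrophil-attracting set summed to 4.52 ± 0.673 CPM per kb (SD, n = 3) in WT and 8.60 ± 0.665 in KO. The interferon-induced set summed to 3.32 ± 0.0893 CPM per kb in WT UT and 2.32 ± 0.335 in KO UT. Their ratio was 1.24, 1.28 and 1.55 across WT UT and 3.22, 3.62 and 4.43 across KO UT, so the KO libraries stood apart above. After LPS the ratio was 0.478, 0.497 and 0.517 in WT and 0.503, 0.514 and 0.523 in KO, which overlapped. Both sums were lower in KO after LPS, at 465 ± 17.4 against 518 ± 25.3 CPM per kb for the neutrophil-attracting set and 905 ± 46.6 against 1043 ± 51.0 for the interferon-induced set. No test was run on these sums.

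Behind the like ratio after LPS, the composition of the neutrophil-attracting set differed between genotypes. Cxcl1 made up 24.7 ± 0.757% of the set's summed level in WT LPS and 45.7 ± 1.01% in KO LPS (SD, n = 3 each). Cxcl2 made up 68.9 ± 1.08% in WT LPS and 50.7 ± 1.25% in KO LPS, and Cxcl3 6.24 ± 0.874% and 3.39 ± 0.297%. The interferon-induced set was dominated by Cxcl10 in every group, with 93.0% to 99.1% of its summed level on average. The ratio of Cxcl1 to Cxcl2 counts, which no scaling of the libraries can change, was 0.203, 0.231 and 0.160 in WT UT and 0.627, 0.552 and 0.516 in KO UT. It was 0.329, 0.310 and 0.335 in WT LPS and 0.855, 0.779 and 0.824 in KO LPS. KO libraries were thus above WT libraries in both treatments, and this ratio was chosen after the values had been seen. Cxcl1 and Cxcl2 lie on the same strand of chromosome 5 and carry the same kappaB match, whose part in this ratio was not tested.

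**Figure D4:**
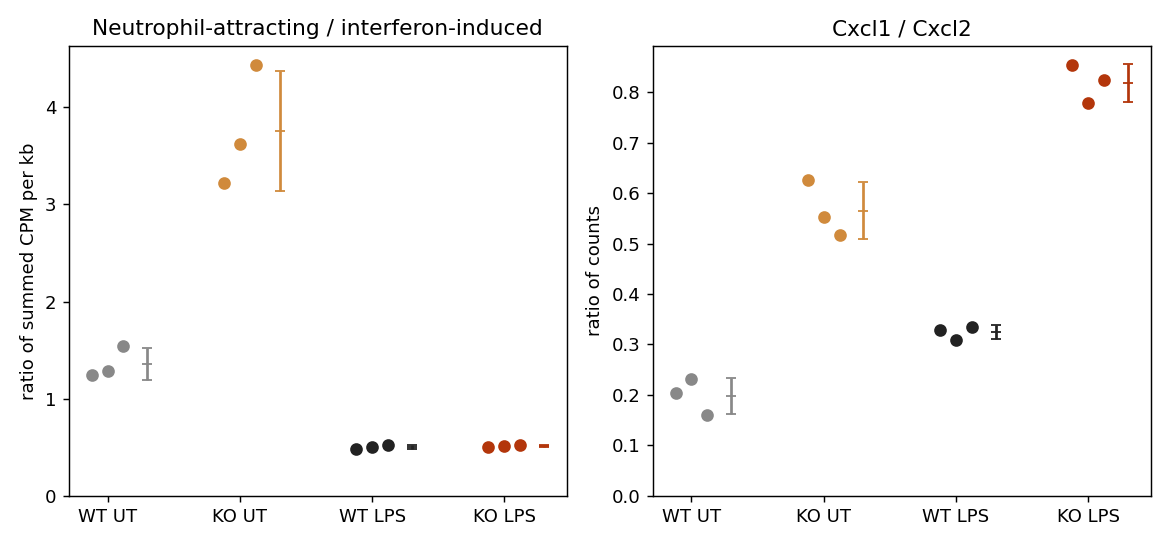
Left, summed CPM per kb of Cxcl1, Cxcl2, Cxcl3 and Cxcl5 divided by that of Cxcl9, Cxcl10 and Cxcl11 in each library; right, Cxcl1 counts divided by Cxcl2 counts, with the mean and SD of 3 libraries beside each group. The left ratio separates the genotypes without LPS (1.36 and 3.76 on average) and not after LPS (0.497 and 0.514), while the right ratio separates them in both treatments.

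The genes around these chemokines were counted from lists. Of the 15 genes of the NF-kappaB arm, 5 were lower and 0 higher in KO after LPS by the adjusted p, where 14.3% of all genes passed, with a median log2 fold change of -0.11 against -0.0075 over all genes, and Tnf was the gene called. Without LPS 2 were lower and 0 higher, where 23.8% of all genes passed (median -0.027 against 0.0014 over all genes). The 2 most counted genes of this list were Il1b, which encodes interleukin 1 beta, and Tnfrsf1b, a Tnf receptor. Il1b did not pass between genotypes after LPS (log2FC -0.085, SE 0.0505, edgeR adjusted p 0.288), although LPS raised it 227-fold in WT. Tnfrsf1b was lower in KO without LPS (log2FC -0.31, SE 0.047, edgeR adjusted p 4.97e-05) and did not pass after LPS, where the KO libraries lay above the WT libraries (log2FC 0.13, SE 0.0468, edgeR adjusted p 0.0761). All 15 genes passed as higher after LPS in each genotype, as did 38% of all genes in WT and 35.1% in KO.

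Of the 15 genes of the interferon arm, 6 were higher and 1 lower in KO after LPS, against 14.3% of all genes passing (median -0.0026 against -0.0075 over all genes). Without LPS 3 were higher and 6 lower, against 23.8% of all genes passing (median -0.15 against 0.0014 over all genes). Irf7, a transcription factor of the interferon response, was called lower in KO without LPS, with 6952, 7211 and 7655 counts in WT UT and 2441, 2385 and 2742 in KO UT (log2FC -1.21, SE 0.0564, edgeR adjusted p 3.31e-12). After LPS its libraries overlapped (log2FC -0.060, SE 0.0543, edgeR adjusted p 0.505), and its interaction was called (1.15, SE 0.078, edgeR adjusted p 1.02e-08). Ifnar1, a subunit of the type I interferon receptor, was higher in KO after LPS (log2FC 0.33, SE 0.0477, edgeR adjusted p 9.03e-05). Jak2, a receptor-bound kinase, was lower in KO without LPS (log2FC -0.25, SE 0.0702, edgeR adjusted p 0.0128).

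**Figure D5:**
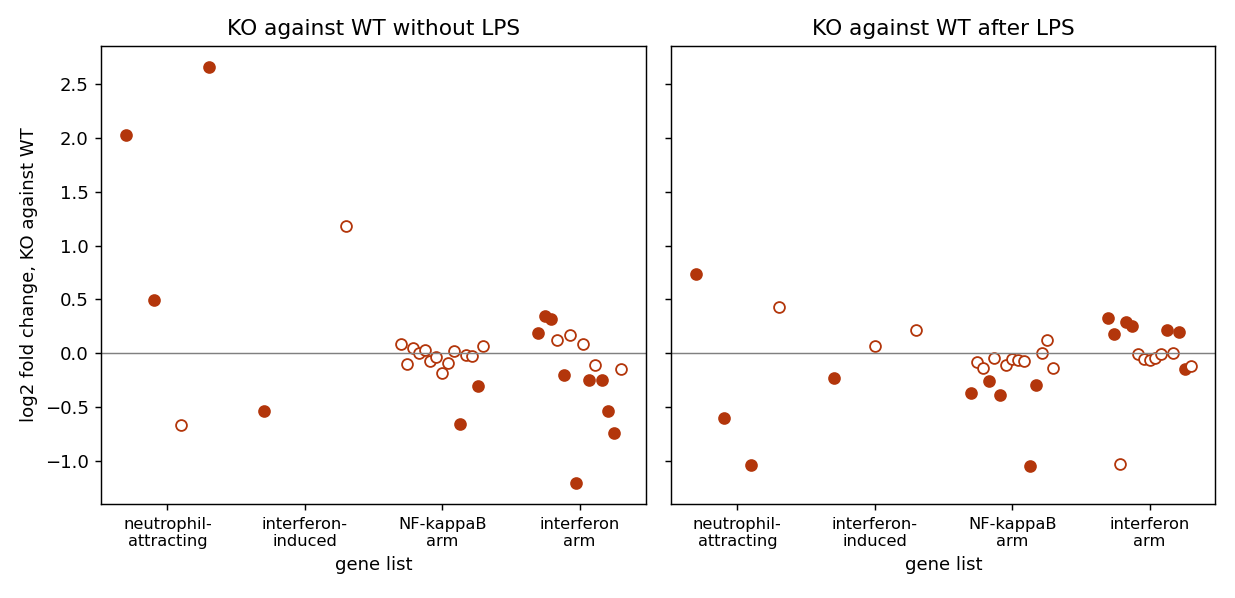
Log2 fold change of KO against WT (y) without LPS (left) and after LPS (right) for the neutrophil-attracting and interferon-induced CXC genes and the lists of the NF-kappaB and interferon arms (x); each point is a gene, filled where the adjusted p is below 0.05. Cxcl11 and Ifnb1 are left out on the left because KO UT was at 0 counts; after LPS the neutrophil-attracting genes spread from -1.04 to 0.73.

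Of the 7 other CXC ligands in the table, Cxcl13, Cxcl15 and Cxcl17 were at 0 counts in every library and 4 were tested. Without LPS 3 of these 4 passed, all higher in KO, where 23.8% of all genes passed in either direction. They were Cxcl14 (log2FC 1.85, SE 0.359, edgeR adjusted p 0.000554, 13 to 23 counts in WT and 43 to 57 in KO), Pf4 (log2FC 0.79, SE 0.0975, edgeR adjusted p 4.45e-06) and Ppbp (log2FC 0.82, SE 0.211, edgeR adjusted p 0.00646). Pf4 and Ppbp are known as platelet chemokines, and the 3 megakaryocyte markers summed to 3.13 to 5.01 CPM in WT UT and 5.74 to 7.08 CPM in KO UT. After LPS this sum was also apart, at 3.24 to 5.23 CPM in WT and 6.59 to 6.99 CPM in KO. Of the 3 markers, 2 passed as higher in KO without LPS, where 23.8% of all genes passed. After LPS 1 of the 3 passed as higher, where 14.3% of all genes passed. None of the 4 ligands passed after LPS, and the part of these markers in Pf4 and Ppbp was not tested. Of 7 CXC receptors, Cxcr3 and Cxcr4 were tested, and both fell with LPS in each genotype. Cxcr4 had 11031 to 11992 counts in WT UT and 37 to 64 in WT LPS (log2FC -6.93, SE 0.0925, edgeR adjusted p 8.68e-24), and Cxcr3, the receptor of the interferon-induced ligands, had 160 to 217 and 17 to 28 (log2FC -2.02, SE 0.228, edgeR adjusted p 6.33e-08). Neither passed between genotypes in either treatment. Cxcr2, the receptor of the neutrophil-attracting ligands, had 0 to 18 counts.

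Patterns over the 12 libraries were compared by the root mean square difference of log2 CPM after centering each gene, over 10850 protein-coding genes. Cxcl1 was most like Timp1 (0.397) and Scimp (0.500), and Cxcl2 was most like Socs1 (0.223), Tnc (0.226) and Il12b (0.226). Cxcl3 was nearest to Gbp5 (0.423), Il1rn (0.450) and Cd69 (0.493). Cxcl10 was also nearest to Gbp5 (0.162), before Ccl5 (0.226) and Il1rn (0.230). For Cxcl9 the nearest genes were Lcn2 (0.383), Ccl7 (0.508) and Csf3 (0.578), and for Cxcl11 they were U90926 (0.250), Saa3 (0.459) and Il1a (0.633). Cxcl5 had Kalrn (0.530), Camp (0.534) and Itga9 (0.536). Cxcl16, with its small range, had Hax1 (0.0518), Slc3a2 (0.0531) and Yju2 (0.0673).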

How the data were processed

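Gene counts of 12 total RNA libraries were analysed. The authors made stranded, globin-depleted libraries, mapped the read pairs with HISAT2 2.1.0 (GRCm38) and built the deposited table of raw counts per gene with featureCounts 2.0.0; its annotation release, strand setting and treatment of multi-mapping reads are not given in the sources used here. Gene names came from GENCODE (48144 of 48526 matched). Counts were tested with edgeR 4.0.16 (limma 3.58.1, R 4.3.3; TMM, filterByExpr with minimum count 10 and minimum total 15), with 12 libraries in one model of 4 group means. The same fit was first run on simulated counts, whose outcome is not reported here. SE is the log2 fold change divided by the root of F. The floor of 3 counts covers counting error only. Motifs and alignments used Python 3.11.15 and Biopython 1.88, figures matplotlib 3.10.9.

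The members and lists were chosen with earlier results of these data known. Named genes were all members, Tnf, list genes called between genotypes or in the interaction, the 2 most counted genes of each list, and the 3 genes most like each member, of which 1 is not reported here. Camp, Ly6g, Acta2, Col1a1, Col1a2, Col3a1, Pdgfrb, Cxcr2, Art3, Gm2673, Zmynd15, Ifnb1, Cxcl13, Cxcl15 and Cxcl17 were named outside that rule. Batch numbers in the labels equal replicate numbers and so pair libraries by label; deviations from group means of same-numbered libraries had r from -0.0631 to 0.0373 over 18 pairs. Alternatives were DESeq2 1.42.0, RLE and upper-quartile scaling, gene removals, other filters, a replicate block, the small RNA share as a covariate, smaller fits and leaving out each library.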

Additional observations from a re-analysis of the deposited data

Results flagged for a closer look

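The response to LPS differed between genotypes by the interaction term for 4 of the 8 genes (edgeR, adjusted p below 0.05). In Cxcl1 it was smaller in KO by 1.30 on the log2 scale (interaction -1.30, edgeR adjusted p 2.20e-07), with KO above WT in all 3 libraries of each treatment. In Cxcl2 the interaction was -1.10 (edgeR adjusted p 1.65e-05), with KO above WT before LPS and below it after. In Cxcl5 it was -2.23 (edgeR adjusted p 0.0261), on 2 to 21 counts per library in UT. It did not pass in 7 of 21 alternative fits (-3.81, edgeR adjusted p 0.296, with the small RNA covariate). DESeq2, among those 21, gave no adjusted p for it and so neither passed nor failed. In Cxcl10 it was 0.31 (edgeR adjusted p 0.0451), a larger response in KO from a lower starting level, and it did not pass in 10 of 22 alternative fits. Cxcl2 (edgeR adjusted p 0.0513) and Cxcl10 (edgeR adjusted p 0.530) also did not pass with that covariate, which left Cxcl1. Over all genes tested, 16.8% passed the same test.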

How the results depend on the processing

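Of 119 alternative counts of called genes, 112 stayed within 1.5 times the reported count. Without a fold change minimum 4 genes were called between genotypes after LPS (14.3% of all genes) and 5 without LPS (23.8% of all genes). Without LPS, 1 gene was called when a mean CPM of 1 or more was required, which removed Cxcl5, and 1 with the small RNA share as a covariate. Over all genes, 160 of 12433 and 132 of 15523 were called in those fits, against 283 of 15523 in the main fit. With the small RNA covariate 0 genes were called for the interaction by edgeR, 1 passed on the adjusted p alone and 5 had an unadjusted p below 0.05. Over all genes, that fit called 111 of 15523 for the interaction, against 335 in the main fit. The share itself differed between the groups, as given above, so adjusting for it also adjusts for part of the group differences. DESeq2, run without the covariate, called 3 for the interaction, where it called 233 of 26120 genes. Leaving out 1 library at a time gave 0 to 1 called genes after LPS, 2 to 3 without LPS and 2 to 3 for the interaction. Over all genes the same fits called 140 to 245 after LPS, 234 to 302 without LPS and 197 to 519 for the interaction. The replicate block left each of these counts as reported (1, 2, 8, 8 and 3) and changed no call.

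Of the single values, 3 changed sign, all from values that had not passed. They were Cxcl5 after LPS (-0.10 with the small RNA covariate), the interaction of Cxcl16 (0.18 with the same covariate) and the interaction of Cxcl3 (0.052 without KO UT replicate 3, and -0.86 to 0.052 over the fits that left out 1 library). A further 25 lost and 10 gained significance, and the causes were not tested. Upper-quartile scaling moved the median of all genes from 0.047 to -0.14 for LPS in WT and from -0.055 to -0.24 in KO, against responses of at least 1.30 in these genes. DESeq2 also called 3 genes without LPS, with Cxcl11 added, where it called 247 of 26120 genes. For the interaction it called Cxcl11 and gave no adjusted p for Cxcl5, which is therefore neither kept nor lost there. Cxcl3, Cxcl5, Cxcl9 and Cxcl11, with at most 21 counts in any UT library, were limited by depth there.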
